A study of Mus musculus with 12 samples.

Results

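The libraries described here were the 3 rod TRAP and the 3 whole-retina libraries labelled Abca4-/-, which are 6 of the 12 libraries of the series, compared in 3 pairs that share a replicate number. Translating ribosome affinity purification (TRAP) pulls down ribosomes that carry a tag, together with the messages they are reading. The knockout mice were 2 months old and carried RiboTag and i75-Rod-Cre besides Abca4-/-, and the littermate controls had the same age, RiboTag and i75-Rod-Cre with Abca4+/+. RiboTag is an allele of the ribosomal protein gene Rpl22 that gains the tag where Cre has acted, and i75-Rod-Cre is a line made to express Cre in rods, so only cells in which that Cre was active were marked. The retina libraries were made from the whole lysate, and less RNA entered their cDNA synthesis than entered that of the TRAP libraries, so that the fraction and the amount of starting RNA cannot be told apart. All tissue had been perfused with cycloheximide, a drug that stalls translating ribosomes, and frozen. Whether a library came from 1 animal or from a pool, the sex of the mice, and which part of Abca4 the allele removes are not given in the sources used here, so the p-values measure the spread between these libraries.

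Rods are the most numerous cells of the mouse retina. They capture light with a visual pigment packed into the membrane discs of an outer segment, and pass the signal through transducin and a phosphodiesterase to a cyclic nucleotide-gated channel. ABCA4 is a transporter of the disc membrane that clears retinal released from bleached pigment, and its loss underlies Stargardt disease. The question was which messages are on the ribosomes of rods that lack it, as seen against the whole tissue around them. Levels are given as TPM, a share of all transcripts corrected for length. Differences are given as log2 of rod TRAP over retina, from limma fits with the pair as a block, and a gene is called where the Benjamini-Hochberg adjusted p over all genes tested was under 0.05. A log2 difference of 1 is a doubling, and values for genes near 0 are understated by an offset in the scale.

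Several libraries stood apart. Abca4 was at 2.9, 6.3 and 216 TPM in knockout rod TRAP replicates 1 to 3 and at 1.8, 5.9 and 129 TPM in knockout retina, against 992, 877 and 889.7 TPM in control rod TRAP and 520, 582 and 494 TPM in control retina. Both libraries labelled knockout replicate 3 were well above the other 4 knockout libraries and below every control library, and list counts that fell without that pair are given below. Knockout retina replicate 1 differed from the other retinas: its log2 levels correlated at 0.967 and 0.963 with replicates 2 and 3 across 16036 genes, while those 2 correlated at 0.986, and it was the retina library nearest to rod TRAP. Lens markers summed to 29.9 TPM in it and to as much as 15196 TPM in another knockout retina. Differences were narrower in the first pair, with a standard deviation over genes of 1.46 on the log2 scale against 1.75 and 1.72 in the others. Each library had been scaled by the authors to between 17096515 and 17862326 counts, and 12866 to 13080 genes reached 10 scaled counts in knockout rod TRAP against 16339 to 16987 in knockout retina.

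Of 16036 genes tested, 5521 (34.4%) were higher and 5870 (36.6%) lower in knockout rod TRAP than in knockout retina, and the 3 TRAP libraries did not overlap the 3 retina libraries for 11130 genes (69.4%). Without pair 1 the counts were 5300 and 6609, and without pair 3 they were 4197 and 5449. The balance depends on the scaling: with the authors' scaling alone 2753 genes were higher and 8674 lower, and the median over all genes moved from 0.0044 to -0.488. All members of a group can shift by that much, so differences under about that size carry a direction only relative to the other genes.

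Rod genes were higher in rod TRAP without exception among the 20 listed markers, each of which passed the filter and was called, against 34.4% of all genes. Their median log2 difference was 1.25, against 0.0044 over all genes, and their summed level was between 239977 and 256054 TPM in the 3 TRAP libraries and between 101396 and 133487 TPM in the 3 retinas. Without pair 2, 18 of the 20 were called, and without pair 3, 19. The smallest difference of the 20 was that of Reep6, at 0.78, which was not called without pair 2 or without pair 3. In bulk RNA, fewer cells of a type and less RNA per cell cannot be told apart.

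Gnat1, the rod transducin alpha subunit, was at 33494, 31297 and 30819 TPM in knockout rod TRAP and 19200.2, 15451 and 13345 TPM in knockout retina, a log2 difference of 1.24 (SE 0.241, limma adjusted p 0.000109). All 3 TRAP libraries were above all 3 retinas in TPM. Sag, the rod arrestin that quenches the light response, was at 15941, 14404 and 13894 TPM against 8045, 6636 and 5651 TPM (log2 1.38). Other rod genes gained more than these 2. Cnga1, the rod channel subunit that cyclic GMP opens, was at 1556, 1581 and 1538 TPM against 246, 154 and 243 TPM (log2 3.14, SE 0.18). Slc24a1, the exchanger that removes calcium from the outer segment, was at 1632, 1639 and 1624 TPM against 454, 296 and 444 TPM (log2 2.31). Rp1, a microtubule protein that aligns the discs, was at 370.4, 905 and 960 TPM against 62.2, 62.3 and 60.4 TPM (log2 3.72, SE 0.337, adjusted p 4.96e-05). Its level in TRAP replicate 1 was well below the other 2, and it still exceeded every retina library.

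Rod and cone photoreceptors use paralogous proteins at each step of phototransduction, which allows a comparison within a family. The promoter windows of 2 rod genes and 1 cone gene of these families are shown because members of both sets carry the same short core. They are RefSeq windows on GRCm38.p6, from 250 bases before to 50 after the start site, and capitals mark TAATCC, the core that the photoreceptor factor CRX is known to bind, or GGATTA, the same core on the other strand.
Sag, rod arrestin, chr1:87803430-87803729, plus strand: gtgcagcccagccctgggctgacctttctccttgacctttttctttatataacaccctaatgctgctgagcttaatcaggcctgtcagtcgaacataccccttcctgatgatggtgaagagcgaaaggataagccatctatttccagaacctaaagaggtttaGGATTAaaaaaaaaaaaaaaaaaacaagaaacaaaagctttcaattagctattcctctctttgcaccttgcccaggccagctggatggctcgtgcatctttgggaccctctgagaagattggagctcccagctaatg
Cnga1, rod channel, chr5:72642703-72643002, minus strand: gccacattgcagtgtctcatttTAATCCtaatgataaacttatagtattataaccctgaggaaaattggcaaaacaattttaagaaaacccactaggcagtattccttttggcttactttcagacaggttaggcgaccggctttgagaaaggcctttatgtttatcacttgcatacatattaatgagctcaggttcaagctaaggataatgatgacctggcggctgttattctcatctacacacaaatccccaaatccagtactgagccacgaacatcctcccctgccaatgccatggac
Gnat2, cone transducin, chr3:108092816-108093115, plus strand: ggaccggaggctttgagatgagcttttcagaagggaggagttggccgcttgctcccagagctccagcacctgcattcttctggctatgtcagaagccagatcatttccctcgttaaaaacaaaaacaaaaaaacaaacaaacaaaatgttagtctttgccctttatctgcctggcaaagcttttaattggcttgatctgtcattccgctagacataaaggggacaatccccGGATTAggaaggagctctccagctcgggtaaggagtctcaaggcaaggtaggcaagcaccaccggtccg
The core lies 87 bases before the start site in Sag, 228 in Cnga1 and 19 in Gnat2. On either strand it was in 7.06% of 32851 windows of that length, in 5 of 14 windows of the rod markers that had one and in 2 of 13 windows of the cone markers. Windows were found for 13 of 20 rod and 9 of 13 cone markers. Among genes tested, 6.99% of the windows of genes higher in rod TRAP, 5.2% of those lower and 5.68% of the others held it. A match is a description of the letters only.

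In 9 families the rod member gained more than the cone member in each of the 3 pairs of libraries. The rod member minus the cone member was 3.83 ± 0.22 (SD, n = 3 pairs, log2) for the channels Cnga1 and Cnga3 and 2.21 ± 0.313 for the transducins Gnat1 and Gnat2. It was smallest for the channel beta subunits Cngb1 and Cngb3, at 0.41 ± 0.399, where the cone-labelled member was itself higher in TRAP and 1 of the pairs differed by only 0.03. These family differences are given as values, with no test.

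**Figure D1:**
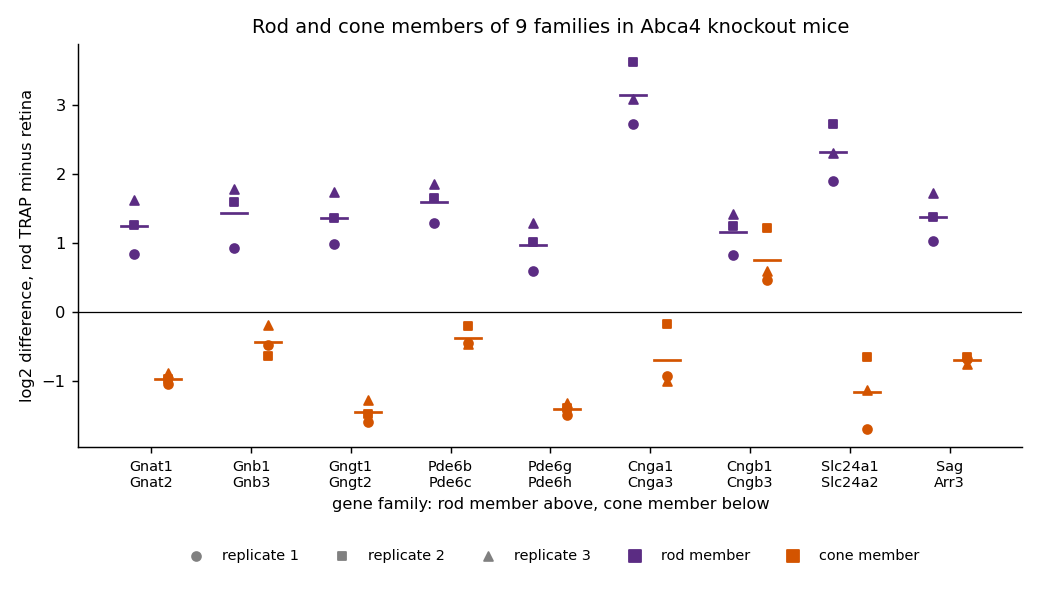
Log2 difference between rod TRAP and retina (vertical axis) for the rod and the cone member of 9 gene families in Abca4 knockout mice, with 1 point per pair of libraries and a bar at the mean of the 3. Rod members lie above 0 in all pairs, and cone members lie below 0 except Cngb3.

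Cone messages were reduced in rod TRAP rather than removed. Of 13 cone markers, 11 were lower and 2 higher, against 36.6% and 34.4% of all genes, with a median of -0.74, and the list summed to 716 to 945 TPM in TRAP against 1598 to 2259.6 TPM in retina. Without pair 2 the counts were 10 and 1, and without pair 3 they were 9 and 2. Opn1mw, the green cone opsin, was at 106, 104 and 96.6 TPM in TRAP and 190, 218 and 189.5 TPM in retina (log2 -0.74, SE 0.132, adjusted p 3.89e-05). Gnat2, the cone transducin alpha subunit, was at 75.8, 100.4 and 81.5 TPM against 147, 225 and 196 TPM (log2 -0.97). The groups did not overlap for either gene. The cone members that went the other way were Thrb, a thyroid hormone receptor that directs cone opsin choice, at 37.7, 54 and 54.5 TPM against 17.7, 9.1 and 27.2 TPM (log2 1.88), and Cngb3 (log2 0.75, adjusted p 0.00269 and not called without pair 2), whose level stayed under 4 TPM in every knockout library.

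In control mice the cone list had a median of -1.59, and whether the difference between genotypes was called depended on the fit. Over all libraries it was not called for Opn1mw or for any cone gene of the 9 families. The nearest was Opn1mw, at 77.9, 59.5 and 76.1 TPM in control TRAP and 341, 269 and 347 TPM in control retina. Its contrast was 1.16 higher in knockout (limma interaction, adjusted p 0.0527). It was called without replicate 2 (adjusted p 0.00034), on log2(TPM + 1) (adjusted p 0.0107) and without the filter on low values (adjusted p 0.0414), and in the other alternatives the adjusted p ran from 0.0554 to 0.952. Without replicate 2 the interaction was also called for Gnat2 (adjusted p 0.0219), Gngt2 (adjusted p 0.00313), Pde6h (adjusted p 0.0279) and Arr3 (adjusted p 0.0352), where 1373 genes were called smaller and 131 larger in all. Without replicate 1 or replicate 3 none of these 5 genes was called. The SE of the Opn1mw interaction was 0.264 without replicate 2, against 0.177 over all libraries. Its lower adjusted p there thus came with a less precise estimate, so these calls do not show a clearer difference. Over all libraries the interaction for the cone members of the families ran from -0.22 to 0.90, with adjusted p from 0.133 to 0.939.

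Messages of the other retinal cells were low in rod TRAP. All 14 Müller glia markers, all 13 amacrine markers and all 15 ganglion cell markers were lower, against 36.6% of all genes, as were 14 of 15 bipolar cell markers. Without pair 2, 12 of the Müller glia markers were called lower. Of 5 horizontal cell markers 4 passed the filter on low values, and these were lower. List medians were -4.41 for Müller glia, -4.42 for bipolar cells, -4.13 for amacrine cells, -4.08 for ganglion cells and -2.11 for horizontal cells. Glul, the glutamine synthetase of Müller glia, was at 82.5, 64.4 and 60.1 TPM against 1160.1, 1746 and 1749.6 TPM (log2 -4.23). Apoe, a lipid carrier made by the same glia, was at 29.6, 29.2 and 21.8 TPM against 1055, 1940.3 and 1669 TPM (log2 -5.42). Calb2, the calretinin of amacrine and ganglion cells, was at 6.9, 8.6 and 4.5 TPM against 395, 606 and 565 TPM (log2 -5.95). Thy1, a surface protein of ganglion cells, was at 2.2, 4.5 and 2.2 TPM against 190.4, 329 and 324 TPM (log2 -6.14, SE 0.146, adjusted p 3.26e-17). Turned back from log2, the list medians put TRAP at between 4.68% and 5.92% of retina for Müller glia, bipolar, amacrine and ganglion cell markers. The offset in the scale makes such shares too high for genes near 0.

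The exception among the bipolar markers was Prkca, protein kinase C alpha, which was at 56.1, 67.9 and 69 TPM in TRAP and 25.4, 36.9 and 60.4 TPM in retina (log2 0.99, adjusted p 2.77e-06). Its groups overlapped in TPM but not on the scale of the fit. Vtn, listed with the vascular markers and encoding vitronectin, was at 2394, 2563 and 2341 TPM against 1271, 1347 and 1072 TPM (log2 1.24), and it made up nearly all of the vascular list's level in TRAP. Of the other 10 vascular markers tested 9 were lower, against 36.6% of all genes. Cldn5, Cdh5, Tie1 and Cspg4 of the list had 0 scaled counts in all 3 TRAP libraries. Microglia markers were lower in 12 of 13 tested, against 36.6% of all genes. All 5 blood genes tested were lower, and of 8 pigment epithelium markers tested 6 were, against the same 36.6%. Without pair 1 the lower calls were 14 of 15 vascular and 12 of 12 pigment epithelium markers, with 4 more of each list past the filter. Without pair 3 they were 8 of 11 vascular markers.

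Lens crystallins had large but unsteady differences. Cryaa, alpha-A crystallin, was at 3.7, 3748 and 5372 TPM in knockout retina replicates 1 to 3 and at 0.2, 102 and 74.8 TPM in TRAP, so that both libraries of replicate 1 were low. Only 1 of 10 lens genes tested was called lower, against 36.6% of all genes, although the median was -3.73. The count was 14 of 14 without pair 1 and 5 of 10 without pair 3. Fits without a pair used a looser filter on low values, which more lens genes passed without pair 1. Dct, a melanin enzyme of pigment cells, varied in the same way, at 2.9, 153 and 110.2 TPM in retina and 0.1, 1.6 and 1.5 TPM in TRAP (log2 -4.55, adjusted p 0.0448), and was not called without the replicate block (adjusted p 0.0692) or on log2(TPM + 1) (adjusted p 0.0798). For Cryaa and Dct replicate 1 was thus low in TRAP as well as in retina. Rpe65 of the pigment epithelium list went the other way. It was highest in replicate 1, at 7, 2.6 and 1.3 TPM in retina and 1.1, 0.7 and 0.4 TPM in TRAP. The part of lens and pigment tissue in other results was not tested.

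**Figure D2:**
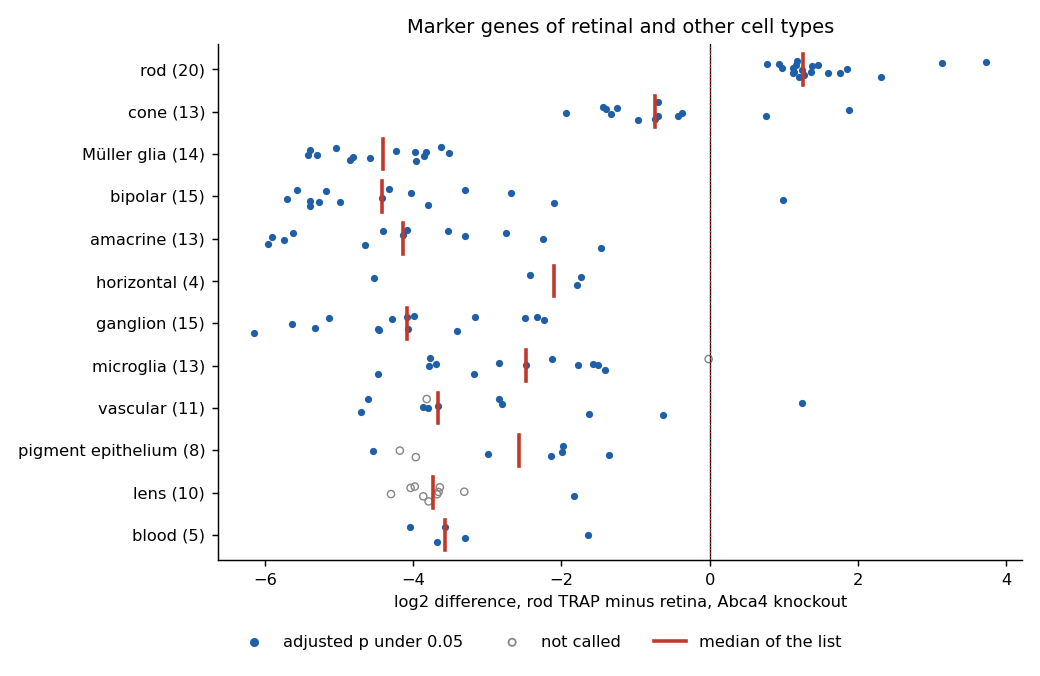
Log2 difference between rod TRAP and retina in Abca4 knockout mice (horizontal axis) for marker genes of 12 cell types, with the number tested in parentheses. Filled points were called, open points were not, red bars are list medians and the dotted line is the median of all genes. Rod markers lie to the right of 0, cone markers lie from -1.93 to 1.88 with 11 of 13 below 0, and those of other cells mostly lie below -1.

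By the rule for named genes, the 12 largest falls were mt-Rnr1, Cx3cl1, Thy1, Adgrb1, Faim2, Cartpt, Eef1a2, Slc24a3, Slc6a17, Calb2, C1ql1 and Sparc, with log2 differences from -6.78 to -5.92. mt-Rnr1, the small ribosomal RNA of the mitochondrion, was at 20.1, 6 and 6 TPM against 1609, 1350.3 and 1201 TPM. Cx3cl1, a chemokine of neurons, was at 0.6, 0.4 and 0.5 TPM against 27.1, 68.7 and 68.2 TPM (log2 -6.30). Cartpt, a neuropeptide of ganglion cells, was at 1.9, 1.5 and 1.7 TPM against 152, 199 and 192 TPM. The rule selected the largest falls with groups that do not overlap, so nothing follows from the margin between fractions. Retina replicate 1 was the lowest retina for Cx3cl1, and for Cartpt in TPM but not on the scale of the fit.

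The 12 largest rises were Smc4, Cep290, Rp1, Smc3, Hsp90aa1, Gm5844, Gm12346, Ift74, Esf1, Thoc2, Top2b and Stag2, from 3.83 to 3.25. Smc4, a subunit of condensin, was at 25.7, 32.7 and 32.3 TPM in TRAP and 3.6, 1.6 and 2.1 TPM in retina (SE 0.262, adjusted p 4.49e-07). Cep290, a protein of the connecting cilium, was at 24.5, 36.5 and 35.8 TPM against 3.5, 2.2 and 2.5 TPM (log2 3.77). Top2b, a DNA topoisomerase, was at 169.6, 213 and 206 TPM against 22.7, 17.4 and 16.5 TPM (log2 3.27). The rule itself required groups that do not overlap, so that nothing follows from their separation. Gm5844 and Gm12346 are annotated as pseudogenes: Gm12346 had 6096, 5913 and 6345 scaled counts in TRAP while its TPM there was 6.9, 5.3 and 7.4, so the 2 deposited tables disagree on its level and its reads may belong to a similar gene. Both are reported as uncertain.

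Genes of the light response beyond the cascade itself rose together. All 10 genes of shut-off and calcium feedback were higher (median 1.24), as were all 11 of outer segment structure and matrix (median 1.24), all 12 photoreceptor transcription factors (median 1.15) and all 8 of retinoid handling (median 0.97), against 34.4% of all genes. These lists share Sag, Grk1, Rcvrn, Prph2, Rom1, Rp1, Nrl, Nr2e3, Esrrb and Samd7 with the rod markers above, so those genes are counted again here. Without pair 3 the outer segment count was 10 and the retinoid count 7, and without pair 1 the retinoid count was 7. Gucy2f, a guanylate cyclase that restores cyclic GMP, had the largest gain of the first group, at 119, 156 and 171 TPM against 23.8, 16.8 and 28.3 TPM (log2 2.95). Rgs9, which speeds transducin shut-off, followed at 913, 949 and 1012 TPM against 271, 203 and 328 TPM (log2 2.09). Among structural genes Prph2, which shapes the disc rim, was the most abundant, at 10482, 11225 and 10440 TPM against 6104, 6026 and 5238 TPM (log2 1.17). Prcd, a small disc protein, gained least (log2 0.51), and was not called without pair 3 (adjusted p 0.144) or without the replicate block (adjusted p 0.108). With the authors' scaling alone its value was -0.031.

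Of the transcription factors, Nrl, which sets rod fate, was at 5556, 5000.4 and 4839 TPM against 3367, 2647 and 2420.1 TPM (log2 1.12). Crx, a homeobox factor shared by rods and cones, was at 1506, 1753 and 1782 TPM against 917, 861 and 885 TPM (log2 1.18). Rorb, a nuclear receptor upstream of Nrl, had the largest gain, at 89.2, 106 and 128 TPM against 35.8, 29.5 and 40.2 TPM (log2 1.97). Rax gained least (log2 0.50), at -0.038 with the authors' scaling alone, and was not called without the replicate block (adjusted p 0.0523). In retinoid handling, Rbp3, the carrier of retinoids between photoreceptors and pigment epithelium, was at 5261, 5235 and 5399 TPM against 2547, 2548 and 2305 TPM (log2 1.35). Rdh12, a retinol dehydrogenase of the inner segment, was at 1147, 1105 and 1121 TPM against 609.9, 605 and 519 TPM (log2 1.19). Rdh13 was lowest (log2 0.46), at -0.075 with the authors' scaling alone, and was not called without pair 1 or without pair 3. What Abca4 message remained in the knockout libraries was also higher in TRAP, by 0.75, 0.62 and 1.42 in pairs 1 to 3 (log2 0.93, SE 0.153, adjusted p 1.82e-05). Without the block for the pairs the same difference was not called (adjusted p 0.765).

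Messages of the cilium and of intraflagellar transport, which carries cargo along it, were higher for 31 of 36 genes and lower for none, against 34.4% and 36.6% of all genes, with a median of 1.29. Ift74, a subunit of the transport particle, was at 57.8, 53.2 and 51.8 TPM against 9.3, 6.5 and 5.5 TPM (log2 3.35). Arl6, a small GTPase of the BBSome coat, was the most abundant member, at 513, 562 and 563 TPM against 204, 159 and 177 TPM (log2 1.79). The 5 not called were Ift27, Ift20, Kif17, Ift46 and Ift140. Under the authors' scaling alone 27 were higher and 3 lower.

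At the photoreceptor ribbon synapse 16 of 19 genes were higher and 2 lower, against 34.4% and 36.6% of all genes, with a median of 0.96. Without pair 2 or without pair 3, 14 were higher. Slc17a7, the vesicular glutamate transporter, was the most abundant, at 2873, 3346 and 3338 TPM against 2199, 2474 and 2109 TPM (log2 0.73, not called without pair 2 or without pair 3). Dmd, dystrophin, had the largest gain, at 17, 38.1 and 41.5 TPM against 4.3, 5.4 and 7.1 TPM (log2 2.89), with TRAP replicate 1 lower than the other 2. Complexins, which clamp vesicle release, parted: Cplx4 was at 1287, 1230 and 1267 TPM against 581, 409 and 489.8 TPM (log2 1.61), and Cplx3 was at 59.1, 88.8 and 95.2 TPM against 288, 521 and 513 TPM (log2 -2.21). Both are known from retinal ribbon synapses, and Cplx3 is also made by amacrine cells. The other gene that was lower was Bsn, the scaffold bassoon (log2 -1.54).

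The study centres on pyruvate kinase, the enzyme of the last step of glycolysis. Pkm was at 4376, 3448 and 3852 TPM in knockout rod TRAP and 2465, 2484 and 2355 TPM in knockout retina, a log2 difference of 0.96 (SE 0.194, limma adjusted p 0.000172) that was positive in 3 of 3 pairs. Its contrast was 0.90 in controls and the interaction was 0.15 (adjusted p 0.742). These values are per gene and do not separate the PKM1 and PKM2 splice forms. Of 19 glycolysis and lactate genes tested, 12 were higher and 3 lower, against 34.4% and 36.6% of all genes, with a median of 0.50. The direction of that median depends on the scaling: it was -0.038 with the authors' scaling alone, with 5 genes higher and 6 lower. Without pair 3 the higher calls were 7, and without pair 1 the lower calls were 5.

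Both hexokinases were higher (log2 1.03 for Hk1). Hk2, hexokinase 2, was at 464, 340.3 and 466 TPM against 200.1, 132 and 177 TPM (log2 1.57, adjusted p 4.02e-08). Pfkm, the muscle-type phosphofructokinase, was at 17, 21.3 and 19.1 TPM against 46.3, 103 and 105 TPM (log2 -1.88). The other phosphofructokinase genes, Pfkl (log2 0.80) and Pfkp (log2 0.69), were higher. Ldha, the lactate dehydrogenase subunit that favours lactate, was at 2001, 2377 and 2506 TPM against 1348, 1557 and 1429 TPM (log2 0.91), and Ldhb was at 144, 136 and 122 TPM against 247, 348 and 304 TPM (log2 -0.88). The enolase Eno1 was higher (log2 0.50), though its TPM overlapped between fractions and its value was -0.038 with the authors' scaling alone. The neuronal enolase Eno2 was lower (log2 -0.85). Under the authors' scaling alone Hk2 and Ldha remained above 0, at 1.03 and 0.37, and Pfkm and Ldhb remained below it.

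Of 18 chaperones 16 were higher and 2 lower, against 34.4% and 36.6% of all genes, with a median of 1.23. Without pair 1 or without pair 3, 14 were higher. Hsp90aa1, the inducible cytosolic HSP90, was at 2717, 2663 and 2961 TPM in TRAP and 318, 211 and 357 TPM in retina (log2 3.45, SE 0.183, adjusted p 1.03e-12). Hsp90ab1, the constitutive form, was at 151, 151 and 161 TPM against 228, 367 and 368 TPM (log2 -0.78). Hsp90aa1 ranked 27 by mean TPM in knockout rod TRAP and 450 in knockout retina. Among the others that were higher were Hsp90b1 of the endoplasmic reticulum at 564, 396 and 406 TPM against 104, 62.6 and 113 TPM (log2 2.58) and Hspa4l, an HSP70 exchange factor, at 218, 237 and 259 TPM against 46.4, 36.4 and 64.2 TPM (log2 2.69). The other chaperone that was lower was Hspe1, the mitochondrial HSP10 (log2 -0.55).

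Eef1a2, the elongation factor form of mature neurons and muscle, was at 2, 3 and 2.2 TPM in TRAP and 139, 282 and 278 TPM in retina (log2 -6.01, SE 0.148). Its paralog Eef1a1 was at 2052, 2057 and 1946 TPM against 2872, 2708 and 2679.8 TPM and was not called (log2 -0.19, adjusted p 0.341). Of 39 translation factors 22 were higher and 5 lower, against 34.4% and 36.6% of all genes (median 0.52). Without the replicate block 2 were lower, and without pair 3, 20 were higher. With the authors' scaling alone 13 were higher and 16 lower, and the median was -0.018. Eif5b, which joins the ribosomal subunits, had the largest gain, at 15.5, 17.9 and 18.7 TPM against 5.4, 2.6 and 3.4 TPM (log2 2.12).

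**Figure D3:**
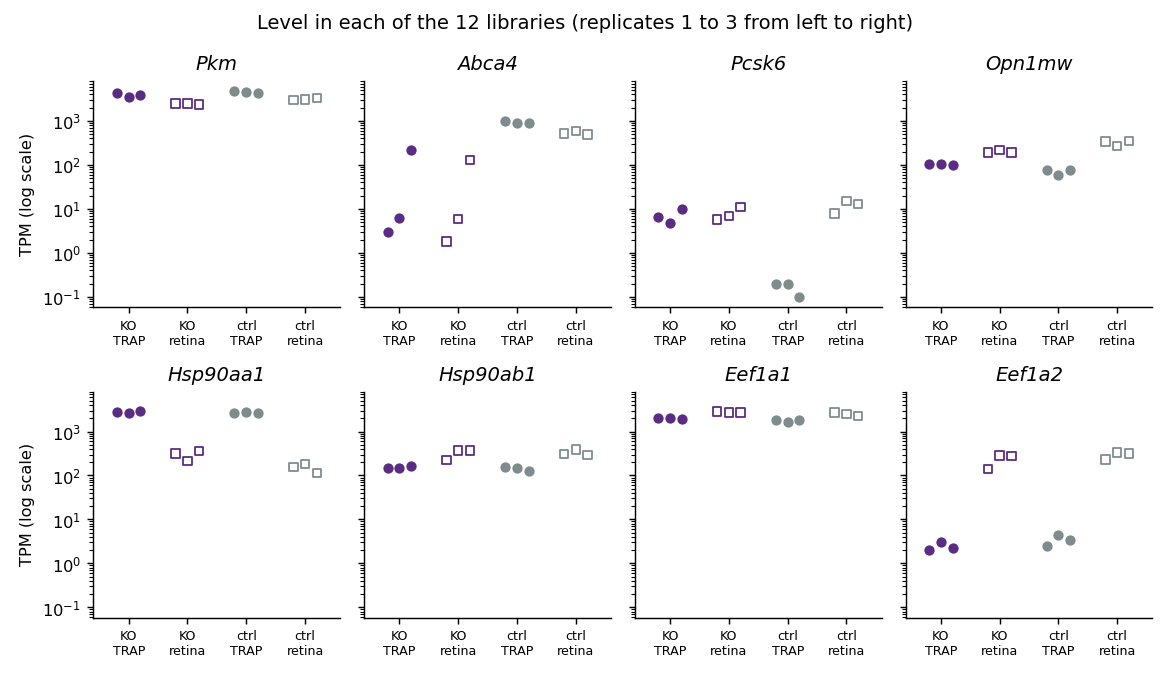
TPM of 8 genes in each of the 12 libraries on 1 shared log axis, with circles for rod TRAP, squares for retina, purple for Abca4 knockout (KO) and grey for control (ctrl). In TRAP Hsp90aa1 is above and Hsp90ab1 and Eef1a2 are below their levels in retina, knockout replicate 3 holds more Abca4 than the other knockout replicates, and Pcsk6 in TRAP is below 1 TPM in controls alone.

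Cohesin, condensin and related SMC complexes, which fold chromosomes, had the highest median of any functional list, at 2.29, with 15 of 18 genes higher and none lower, against 34.4% and 36.6% of all genes. Smc3, a cohesin ring subunit, was at 85.3, 87.5 and 91.5 TPM against 11, 7.3 and 10.3 TPM (log2 3.48), and Stag2, its accessory subunit, was at 93.1, 104 and 104 TPM against 13.5, 8.7 and 13.1 TPM (log2 3.25). Nipbl, the cohesin loader, was at 26.8, 38.2 and 42.8 TPM against 6, 4.4 and 4.4 TPM (log2 3.04). The genes not called were the condensin subunits Ncapd2, Ncaph2 and Ncapd3. In controls the list median was 3.05. The interaction for Smc4 was -0.74 (adjusted p 0.26) and for Smc3 -0.69 (adjusted p 0.175), neither of which was called. Without replicate 2 both were, at -1.03 (adjusted p 0.0164) and -0.91 (adjusted p 0.0136), as was Stag2 at -1.06 (adjusted p 0.00356), and without replicate 1 or replicate 3 none of the 3 was. In the fit without replicate 2, 1373 of all 17331 genes tested were called smaller in knockout, so these calls are not particular to SMC genes.

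The ribosome's own messages were slightly depleted. Of 78 cytosolic ribosomal protein genes 67 were lower and none higher, against 36.6% and 34.4% of all genes, with a median of -0.73 and sums of 33886 to 39595 TPM in TRAP and 59503 to 78599 TPM in retina. With the authors' scaling alone all 78 were lower. Without the replicate block 52 were lower, and without pair 2, 59. Rpl22, the tagged protein's gene, was at 503, 407 and 374 TPM against 694, 526 and 478 TPM and was not called (log2 -0.057, adjusted p 0.726). The lowest value, -1.61 for Rps10, rests on 26, 39 and 29 scaled counts in retina although its TPM there was 1346, 1159 and 1011, so the tables disagree and it is uncertain.

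The 13 protein-coding messages of the mitochondrial genome, which mitochondrial ribosomes read, were all lower, with a median of -4.79. mt-Co1, a cytochrome oxidase subunit, was at 505, 220.1 and 203 TPM against 20426, 11489 and 14587 TPM (log2 -5.49, SE 0.177). TRAP replicate 1 and retina replicate 1 were the highest of their groups. Messages for the same respiratory chain that are read on cytosolic ribosomes had a median nearer to 0: of 74 nuclear-encoded subunits 16 were higher and 10 lower (21.6% and 13.5%, against 34.4% and 36.6% of all genes), and the median was -0.062. Ndufs1, a large subunit of complex I, had the largest gain, at 83.3, 96.4 and 99 TPM against 43.5, 53.5 and 64.3 TPM (log2 1.04). With the authors' scaling alone 2 were higher and 57 lower, without pair 3 they were 8 and 8, and without the replicate block the lower calls were 5. The member with the highest level, Ndufa4, went from 0.36 to -0.18 under that scaling.

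Long noncoding RNAs, which ribosomes mostly do not read, were lower for 13 of 15 genes tested and higher for 1, against 36.6% and 34.4% of all genes, with a median of -1.54. Malat1, a nuclear RNA, was at 4.3, 12 and 9.8 TPM against 87.1, 114 and 126 TPM (log2 -3.45), and Rian, an imprinted RNA of neurons, was at 0.5, 1 and 1.7 TPM against 29.8, 63.7 and 65.7 TPM (log2 -5.22). Gas5, a host of small nucleolar RNAs, was at 288, 249 and 258 TPM against 490.2, 432 and 444 TPM (log2 -0.50), the highest level of the list in TRAP. Tug1, the one that was higher, was at 26.5, 38.9 and 41.9 TPM against 26.5, 28.2 and 43.5 TPM, with overlapping groups (log2 0.39, adjusted p 0.0243). Its value with the authors' scaling alone was -0.15, and it was not called without pair 2 or without pair 3.

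Genes of photoreceptor stress and gliosis went in both directions. Gfap, the filament protein of reactive Müller glia, was at 0.5, 0.3 and 0.1 TPM in TRAP and 16.1, 24.6 and 18.1 TPM in retina (log2 -4.74, adjusted p 1.31e-13). Of 12 genes tested 8 were lower and 2 higher, against 36.6% and 34.4% of all genes, with a median of -2.01. Fgf2, a growth factor that stressed photoreceptors make, was at 11.7, 29.7 and 36.5 TPM against 4, 4.1 and 7.9 TPM (log2 2.39, adjusted p 0.00025). It was low in TRAP replicate 1, yet above all retinas. Stat3 was the other gene that was higher (log2 0.39). Its level was 21.5, 27.8 and 25.5 TPM in TRAP and 18.5, 26.4 and 28.3 TPM in retina, with overlapping groups, and its log2 difference was -0.15 with the authors' scaling alone. Without pair 1 or without pair 3 only 1 gene of the list was higher. Edn2, an endothelin of injured photoreceptors, was not called (log2 -0.048, adjusted p 0.862).

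**Figure D4:**
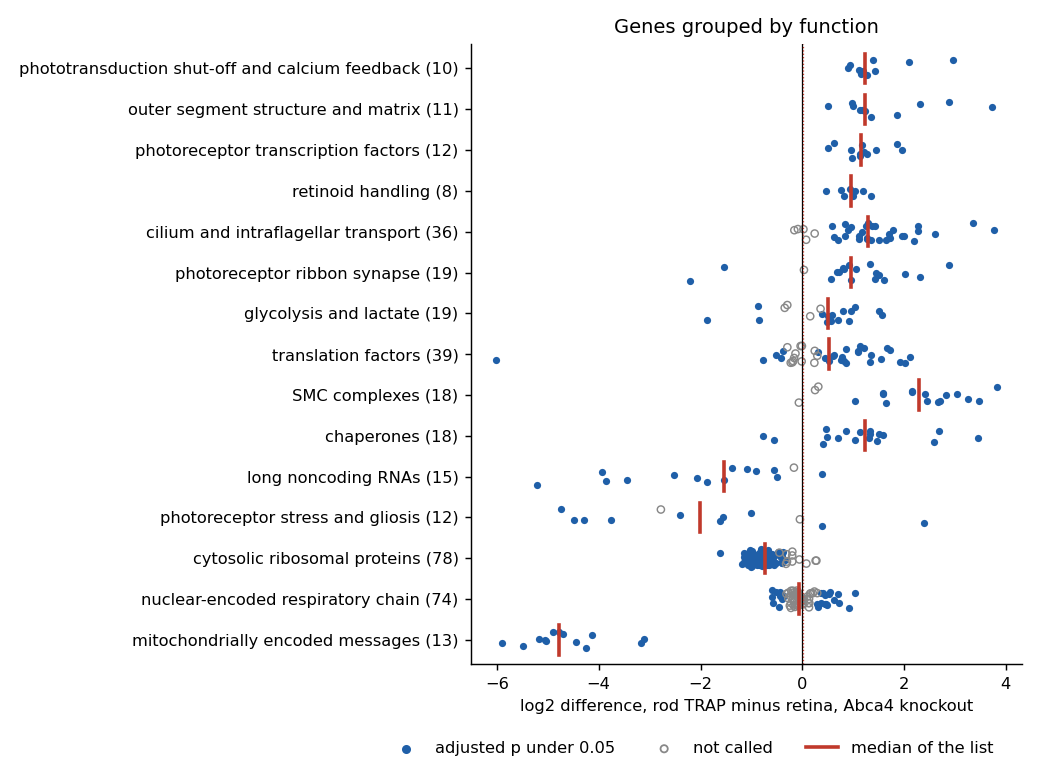
Log2 difference between rod TRAP and retina in Abca4 knockout mice (horizontal axis) for 15 lists of genes grouped by function, with the number tested in parentheses. Filled points were called, open points were not, and red bars are medians. SMC genes reach furthest right among the medians, ribosomal protein genes lie just below 0, and mitochondrially encoded messages lie below -3.

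Abundance on rod ribosomes was concentrated in few messages. The 10 highest genes of each library held 23.6%, 21.8% and 21.0% of its scaled counts in knockout rod TRAP. In knockout retina the shares were 18.2%, 14.8% and 12.5%. The 30 messages of highest mean TPM in knockout rod TRAP summed to 358524, 330163 and 330039 TPM in its 3 libraries, and the same 30 summed to 202740, 183096 and 160321 TPM in knockout retina. These 30 were picked by their level in TRAP, so a lower sum in retina is partly built in. Among the first 7 were Gnat1, Pdc, Gnb1, Sag, Pde6g and Prph2, which are genes of the outer segment or its signal cascade. Pdc, phosducin, which binds transducin beta-gamma subunits, followed Gnat1 at 20485, 14763 and 15669.7 TPM and was 19th in retina, where it was at 7702, 4355 and 4786 TPM (log2 1.87).

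Longer coding sequences came with higher values. Over 13056 protein-coding genes split into 5 bins by coding length, the median log2 difference was -0.19, -0.013, 0.094, 0.26 and 0.23 from shortest to longest. Among genes with a mean TPM of at least 10 the medians were -0.08, 0.19, 0.34, 0.55 and 0.67, and in controls the outermost bins were at -0.13 and 0.85. Each of the 3 pairs showed the order from the first to the fourth bin. Across all 13056 genes Spearman's rank correlation was 0.148, a weak relation in which genes share libraries and are not independent. The lists above differ in length, with a median coding length of 454.5 bases for ribosomal protein genes, 1272 for rod markers, 2154 for cilium genes and 3736.5 for SMC genes. The part of length in their differences was not tested.

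**Figure D5:**
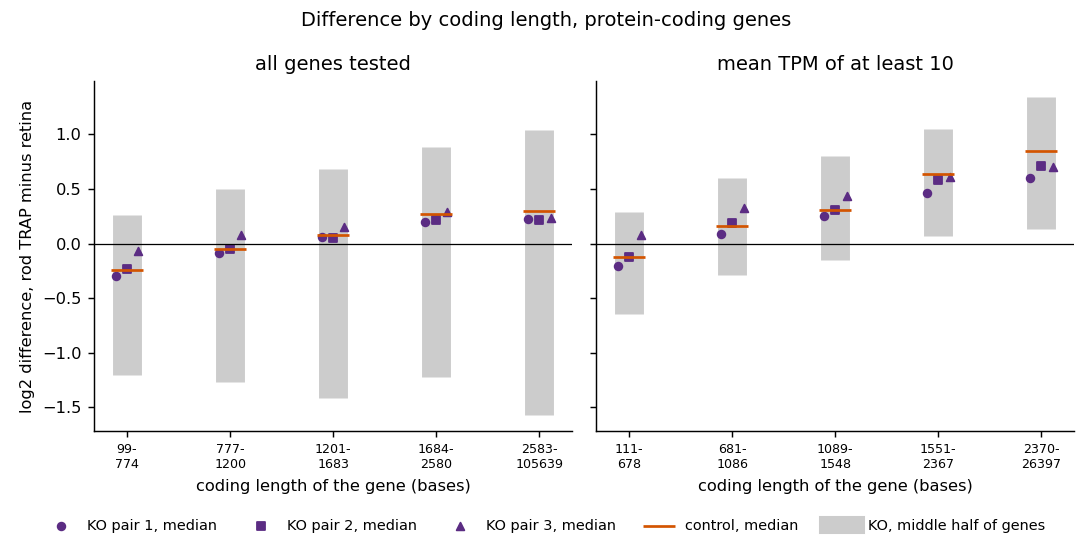
Median log2 difference between rod TRAP and retina (vertical axis) in 5 bins of coding length in bases (horizontal axis), for all protein-coding genes tested and for those with a mean TPM of at least 10. Purple points are the 3 knockout pairs, orange bars are controls and grey bars run from the lower to the upper quartile of genes in knockout. Medians climb from the shortest to the fourth bin in both panels.

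Across 15650 genes tested in both genotypes, the log2 difference in knockout and the one in controls correlated with Pearson's r of 0.977, and of 10495 genes called in both 10490 had the same sign. These are correlations across genes, which are not independent replicates. In the interaction fit over 17273 genes, 1 gene (0.00579%) had a contrast that was larger in knockout and 0 genes (0%) had one that was smaller by limma's adjusted p, while 2809 genes were at an unadjusted p under 0.05. Leaving out replicate 2 of both genotypes raised the calls to 131 and 1373, and leaving out replicate 1 gave 2 and 21. In each fit limma estimates anew a spread shared across genes, and an adjusted p can fall while the SE rises, as for Opn1mw. How much of these counts comes from the pair left out was not tested.

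The gene called was Pcsk6, a proprotein convertase that cuts secreted precursors. It was at 6.5, 4.7 and 10.1 TPM in knockout rod TRAP and 5.7, 6.9 and 11.1 TPM in knockout retina, and the groups overlapped (log2 0.032, SE 0.164, adjusted p 0.872). In controls it was at 0.2, 0.2 and 0.1 TPM in TRAP and 7.9, 15.1 and 13 TPM in retina (log2 -4.74). The interaction was 4.83 (SE 0.266, adjusted p 5.99e-07), with all 3 knockout TRAP libraries above all 3 control TRAP libraries. The next 4 by p did not pass: 2900026A02Rik (1.68), Myo5b (-1.39) and Opn1mw (1.16), each with an adjusted p of 0.0527, and Hr (1.40, adjusted p 0.0613). Myo5b, a myosin that moves recycling vesicles, was at 2.9, 5.8 and 3.8 TPM in knockout TRAP and 16.9, 8.1 and 10.9 TPM in control TRAP. Hr, a nuclear receptor corepressor, was at 7.6, 8.4 and 12.4 TPM in knockout TRAP and 4.7, 3.3 and 5.7 TPM in control TRAP.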

How the data were processed

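RNA from whole-retina lysate and from rod ribosomes was measured in 12 libraries, of which the 6 labelled Abca4-/- are described and the 6 controls serve for comparison. Groups and replicate numbers came from the labels, and all value columns were matched to a library. The authors deposited a table of scaled counts, treated here as a score because every library of a fraction sums to nearly the same total (17096515 to 17097707 for TRAP and 17860761 to 17862326 for retina), so that the sequencing depth is unknown, and a table of TPM, which the authors had computed by gene symbol. The submitters' processing notes name CASAVA 1.8.2, HISAT2, DESeq2, edgeR and GRCm39 without saying what each was used for, and the annotation is not given in the sources used here.

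Scaled counts do not suit a count model, so each table was tested with limma 3.58.1 in R 4.3.3 (trend, robust) on log2(CPM + 0.5), with TMM factors (trims of 0.3 and 0.05) computed on the scaled counts. Genes with at least 10 scaled counts in at least 3 libraries were kept, or in at least 2 in fits that left out a replicate or a library. The p-values were two-sided and Benjamini-Hochberg adjusted with a threshold of 0.05. The main fit held the replicate number as a block. Deviations of same-numbered TRAP and retina libraries from their group means correlated at 0.466, 0.226 and 0.400 in knockout and 0.289, 0.210 and 0.160 in control. Knockout TRAP replicate 2 correlated slightly more with retina replicate 3 (0.244) than with its own retina. The other libraries of unlike number ran from -0.484 to 0.0086. The numbers were taken to pair the libraries, though for knockout replicate 2 these values do not single out its own retina. The interaction of fraction and genotype was fitted over all 12. The step was tested on simulated data.

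Members, gene lists and tests were chosen with earlier results of these data known. Named genes were the 12 largest rises and falls among called genes with 3 paired differences of one sign, groups that do not overlap and at least 20 mean CPM in the higher group, the 5 smallest interaction p-values, the rod and cone pairs, Abca4, Pkm, Pcsk6, Rpl22 and Gfap, and in each list the largest rise, the largest fall and the member of highest mean TPM. Other genes were named after their values were seen. Some genes that this rule covers are not reported here. Coding lengths were read from GENCODE M21 (GRCm38) by symbol, which matched 15357 genes, in place of protein lengths. Promoter sequences came from RefSeq on GRCm38.p6, and no coordinates were moved between builds. Alternatives were no block, other offsets and filters, the authors' scaling alone, TPM, and leaving out each replicate. Python 3.11.15 with pandas 2.3.3, numpy 2.4.6 and matplotlib 3.10.9 was used for summaries and plots.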

Additional observations from a re-analysis of the deposited data

Results flagged for a closer look

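The contrast of rod TRAP with retina differed between genotypes for Pcsk6, by the interaction term of a limma fit over both genotypes (4.83 on the log2 scale, SE 0.266, adjusted p 5.99e-07). It was called in every alternative run, and the adjusted p reached 0.00723 in the weakest of them. In single groups of 3 libraries no test for an outlying library was made.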

How the results depend on the processing

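Genes higher in knockout rod TRAP numbered 2753 with the authors' scaling alone and 3558 on log2(TPM + 1), and in controls 3495 and 3970. The interaction gave 4 larger and 2 smaller without the filter on low values and 2 and 1 on log2(TPM + 1). Leaving out each replicate gave 4197 to 5300 higher and 5449 to 6609 lower genes in knockout, 5292 to 5790 and 6011 to 6873 in control, and 1 to 131 larger and 0 to 1373 smaller interactions, the highest of both without replicate 2. Without the replicate block that pairs the libraries, 4872 genes were higher and 5408 lower, and leaving out single libraries from that fit gave 4024 to 4668 and 5052 to 6273. Of 111 named genes 81 kept their direction and call in all alternatives run for them. Directions turned for Abca4 without the block, to -0.92 without knockout rod TRAP replicate 3 and -0.21 without knockout retina replicate 1, and with the authors' scaling alone for Ndufa4 (-0.18), Prcd (-0.031), Rax (-0.038), Rdh13 (-0.075) and Tug1 (-0.15). For the scaling the turn follows its construction, since it moves all genes down by about the same amount. In the other cases the cause was not tested. The depth of the libraries is unknown, and 3 pairs limit what small differences can be shown.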

Other observations

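Gene types differed in their place in the comparison. Of 983 long noncoding genes tested 189 were higher and 416 lower in knockout rod TRAP, with a median log2 difference of -0.27, and of 13056 protein-coding genes 4815 were higher and 4833 lower, with a median of 0.039. Of 1100 pseudogenes 323 were higher and 246 lower, with a median of 0.091, and their reads may belong to the genes they resemble. Over all genes tested 34.4% were higher and 36.6% lower, and both pseudogene shares were below these. The 18S ribosomal RNA gene Rn18s-rs5 was at 13052, 8244 and 8355 TPM in knockout rod TRAP and 16281, 22171 and 16367 TPM in knockout retina (log2 -0.65, limma adjusted p 0.0207), and ranked 8 by mean TPM in TRAP and 2 in retina. The mitochondrial gene mt-Co2 was at 0 TPM in all 3 knockout TRAP libraries although it held 2051, 535 and 444 scaled counts there, so the TPM table and the count table disagree for it.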
